A study of Arabidopsis thaliana with 28 samples.

Results

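JAZ proteins are repressors of the jasmonate pathway in plants. At low hormone they bind MYC2 and related transcription factors and, through NINJA or on their own, bring the TOPLESS corepressor to jasmonate genes. The active hormone, jasmonoyl-isoleucine, joins a JAZ to the receptor COI1, which leads to its destruction and frees the transcription factors, and many JAZ genes are themselves targets of MYC2, which closes a feedback loop. Accessible chromatin was described here at 10 genes of the family in Arabidopsis thaliana, chosen by name: JAZ1 (AT1G19180), JAZ2 (AT1G74950), JAZ3 (AT3G17860), JAZ5 (AT1G17380), JAZ6 (AT1G72450), JAZ7 (AT2G34600), JAZ8 (AT1G30135), JAZ9 (AT1G70700), JAZ10 (AT5G13220) and JAZ12 (AT5G20900). They are 10 of 27444 protein-coding nuclear genes measured in the same way.

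The libraries were made by ATAC-seq, in which Tn5 transposase cuts and tags open DNA, from sorted nuclei. Tissue had been held for 45 min in liquid MS medium that contained vehicle or the cytokinin benzyladenine (BA) at 5 µM. Roots of the arr1,10,12 mutant, named for ARR1, ARR10 and ARR12, type-B transcription factors that carry out the cytokinin response, gave 2 BA and 2 control libraries. Wild-type (WT, Col-0) roots gave 4 BA and 4 control libraries, and WT shoots gave 2 BA and 2 control libraries. Neither plant age nor the arr alleles are given in the labels, and no mutant shoot library was analysed here. Each library is a deposited list of peaks with no height or read number, so sequencing depth is not known and the values carry no counting interval. The measurement is the covered percent, the share of a window under peaks of 1 library, where the window is the gene with 1 kb on both sides. Differences are in percentage points.

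Across the whole series, libraries held 30778 to 36358 peaks. The mean covered percent over all genes was 25.1 to 29.5 in arr1,10,12 roots, 25.8 to 31.2 in WT roots and 20.7 to 24.8 in WT shoots. By limma with Benjamini-Hochberg adjustment over 24708 genes, 7 of 10 root marker genes had a higher covered percent in roots than in shoots and none a lower one. Of 9 shoot marker genes tested, 7 were lower in roots, while CLV3, a stem-cell peptide gene of the shoot tip, was higher, and STM, another shoot-tip gene, had no peak in any library. PIN2, an auxin exporter of the root, averaged 61.4 ± 4.11 in WT roots and 12.4 ± 3.54 in WT shoots, and LHCB2.1, a light-harvesting gene, averaged 6.78 ± 3.07 in WT roots and 78.5 ± 10.5 in WT shoots (SD, n = 8 and 4). Peaks remained over the mutated genes in arr1,10,12, where ARR12 had 36.9 to 43.5% covered, against 44.0 to 60.1% in WT roots, so peak lists do not check the mutations. The libraries come from whole tissues, in which a change in the makeup of cell types and a change in accessibility within a cell type cannot be told apart.

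All 10 JAZ windows held a peak in 16 of 16 libraries. The mean covered percent over the libraries ran between 39.8 at JAZ8 and 98.7 at JAZ1, the 76.5th and 99.5th percentiles of all genes. The median of the 10 means was 61.6, against a median of 21.5 over all 27444 genes, and each of the 10 lay above it. In order, JAZ1 was followed by JAZ9 (74.2) and JAZ5 (71.4), then by JAZ7 (62.9), JAZ10 (62.3), JAZ6 (60.9), JAZ3 (60.7) and JAZ2 (60.7), and last came JAZ12 (43.8) and JAZ8 (39.8). Neighbours in this order below JAZ1 overlapped in their ranges over libraries. Because a window holds flanks of fixed length, short genes such as JAZ7 (923 bp) and JAZ8 (990 bp) are represented mostly by their flanks, and JAZ3 (3338 bp) mostly by its body.

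**Figure D1:**
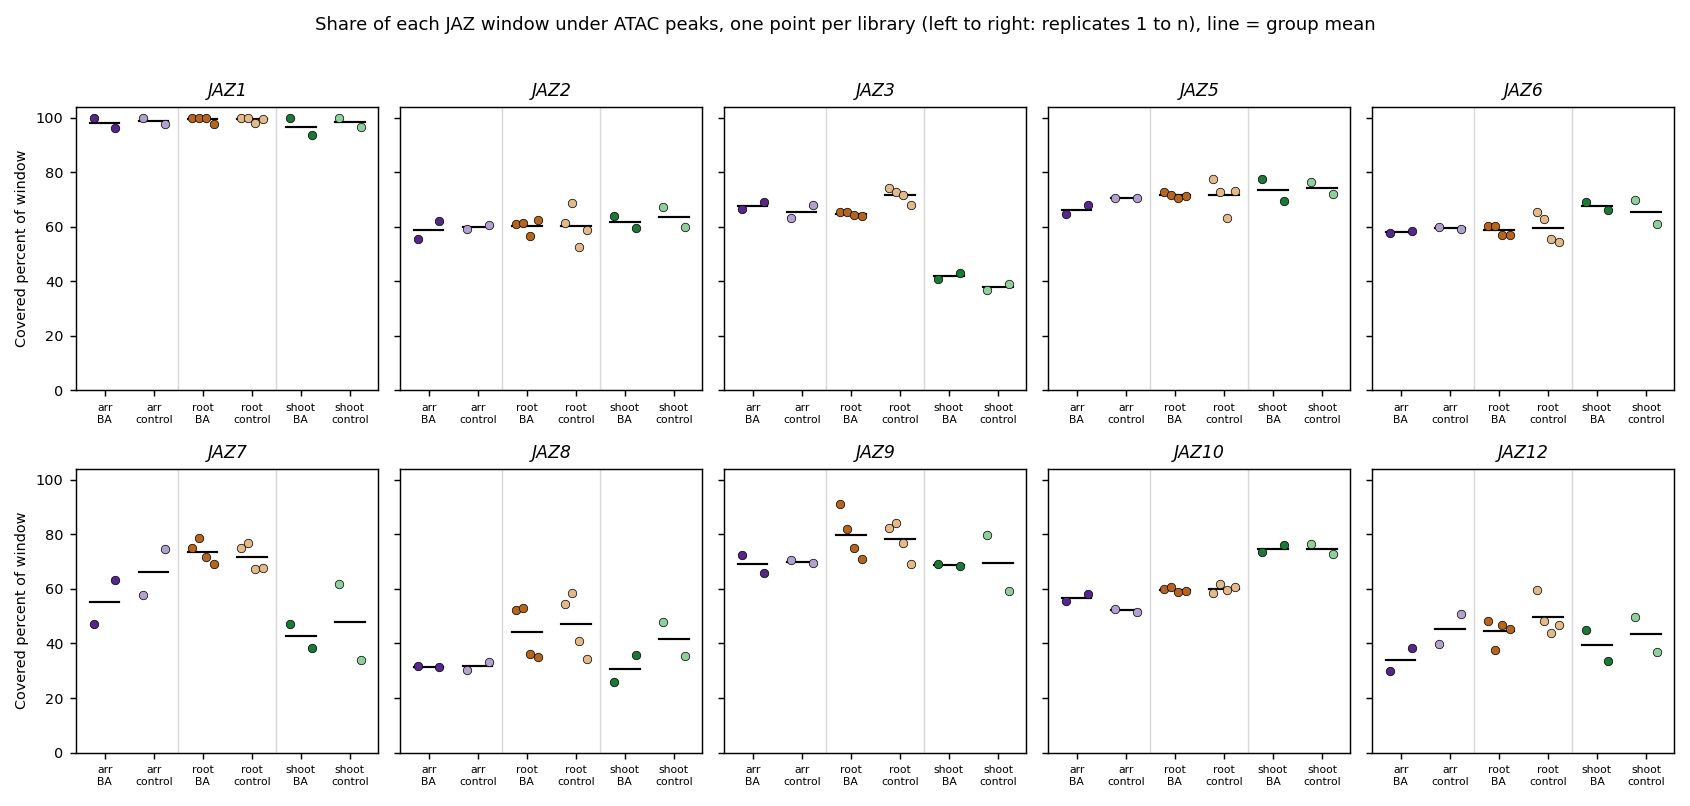
Covered percent of each JAZ window (vertical axis, 0 to 100%) in every library, by group (horizontal axis: arr1,10,12 roots, WT roots and WT shoots, each with BA and control). Points are libraries and lines are group means; JAZ3 and JAZ7 lie higher in WT roots than in WT shoots, JAZ10 lies lower, and JAZ1 is near 100% throughout.

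The peaks of the 16 libraries merged into 21 regions that touch a JAZ window, and 17 of them were present in all 16 libraries. A peak anywhere along a region was counted, also where the region runs outside the window. JAZ1 lay inside a single merged region of 10708 bp (chr1:6617767-6628474, TAIR10). It reaches into the next protein-coding gene on both sides, which lie 154 bp above and 2770 bp below JAZ1. JAZ7 lay inside one of 4765 bp (chr2:14572651-14577415) and JAZ9 inside one of 12970 bp (chr1:26649680-26662649). At JAZ2, JAZ3, JAZ5, JAZ6, JAZ8, JAZ10 and JAZ12 separate regions sat over the 2 ends of the gene or beside them, with a gap over part of the body. At JAZ2, for example, 97.4 to 100% of each flank was covered in the WT group means, but 18.2 to 25.0% of the gene body.

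Several JAZ windows are shared with a neighbour, so that a peak cannot be assigned to the JAZ gene alone. JAZ12 overlaps AIP2 by 28 bp, JAZ5 lies 11 bp from UBP1B, JAZ6 lies 32 bp from EDA25 and JAZ3 lies 296 bp from TDX. JAZ2, JAZ7, JAZ8 and JAZ10 have no other protein-coding gene within their windows. JAZ5 and LOX3 are separated by 2 protein-coding genes, JAZ6 and LOX4 by 6, JAZ2 and ARR15 by 6, and JAZ1 and ARR7 by 14. LOX3 and LOX4 encode lipoxygenases of jasmonate synthesis, and ARR7 and ARR15 encode type-A response regulators, early cytokinin targets.

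JAZ windows passed the test between tissues and in none of the other comparisons. WT roots (8 libraries) were set against WT shoots (4 libraries), with BA and control weighted equally. By limma at an adjusted p under 0.05, JAZ3 and JAZ7 were higher in roots, and JAZ10 and JAZ6 were lower in roots. The call at JAZ6 was lost when libraries of one replicate number were fitted as a block. The background of this comparison is high: 48.3% of the 24708 genes tested were called, 37.5% as higher and 10.8% as lower in roots, so that 4 of 10 is a share near the background. The median difference was 3.77 points over the 10 JAZ genes and 3.46 points over all genes. When libraries were scaled to one mean, the all-gene median moved to -0.15 points and the calls split into 5992 higher and 6370 lower, against 9263 and 2665 without scaling. The directions at JAZ3, JAZ7, JAZ10 and JAZ6 were the same with scaling.

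JAZ3, the gene in which the dominant jasmonate-insensitive mutation jai3-1 was found, had a higher covered percent in roots than in shoots. Its covered percent in WT roots was 65.3, 65.5, 64.4 and 63.8 with BA and 74.2, 72.6, 71.5 and 67.9 in controls. In WT shoots it was 40.8 and 42.9 with BA and 37.0 and 39.1 in controls. Every root library was above every shoot library. The difference was 28.2 ± 1.67 points (SE, limma adjusted p = 5.01e-08). It lay mostly in the gene body, where the peak over the lower-coordinate end of the gene reached 1480 to 1647 bp into the gene in the 8 WT root libraries and 223 to 284 bp in the 4 shoot libraries. The flank on that side was covered in full in all WT root libraries and in both shoot controls. The body itself was covered to 56.4 ± 1.06% with BA and 64.6 ± 2.46% without in WT roots (SD, n = 4 each), against 22.3 and 25.1% with BA and 12.4 and 15.9% in controls in WT shoots.

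JAZ7 encodes a JAZ with an atypical hormone-binding degron and an EAR motif, which binds TOPLESS. In WT roots its window was covered to 75.0, 78.8, 71.7 and 69.1% with BA and to 75.2, 76.9, 67.4 and 67.8% in controls. In WT shoots the values were 47.2 and 38.4% with BA and 61.6 and 33.9% in controls. All root libraries exceeded all shoot libraries, although the shoot libraries were spread widely. The difference was 27.4 ± 5.20 points (SE, limma adjusted p = 0.000898). Peaks covered 97.3 ± 5.36% of the gene body with BA and 93.1 ± 8.02% in controls in WT roots, against 46.6 ± 14.1% and 60.0 ± 27.4% in WT shoots. The flank above the gene showed the same order, with 96.5% and 96.8% in WT roots against 54.2% and 52.2% in WT shoots, while the flank below it had 28.9% and 27.2% against 28.0% and 32.0%.

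JAZ10, a strongly jasmonate-induced member known for splice forms that resist destruction, showed the opposite direction. Its window had 59.9, 60.8, 58.9 and 59.3% with BA and 58.6, 61.7, 59.5 and 60.7% in controls in WT roots. It had 73.7 and 76.0% with BA and 76.5 and 72.8% in controls in WT shoots. The 8 root values spanned little more than 3 points and lay below all 4 shoot values. The difference was -14.8 ± 1.43 points (SE, limma adjusted p = 3.53e-06). All 4 shoot libraries held a separate peak in the lower flank that ended 545 to 556 bp before the gene, such as chr5:4217917-4218240 in shoot BA 1 and chr5:4217849-4218238 in shoot control 2. Of the 8 WT root libraries only control 2 had a separate peak within the window on that side, and it ended 985 bp before the gene. The peak over the upper end of JAZ10 reached 1004 to 1211 bp into the gene in WT roots, less far than the 1277 to 1355 bp in WT shoots.

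JAZ6, which like JAZ5 carries an EAR motif in its protein, had 57.0 to 60.4% covered with BA and 54.6 to 65.5% in controls in WT roots. In WT shoots it had 69.1 and 66.0% with BA and 69.6 and 60.9% in controls. Shoot control 2 lay within the root range, so the tissues overlapped. The difference was -7.26 ± 2.43 points (SE, limma adjusted p = 0.0268). The call was lost with the replicate block (adjusted p = 0.0542), without shoot BA 1 (0.0927), without shoot control 1 (0.132), with gene bodies alone (0.0810), and with BA (0.0757) or control (0.209) libraries alone. The peak over its upper end extended 2067 to 2398 bp beyond the gene in WT roots and 2812 to 2865 bp in WT shoots, in both outside the window. The next gene on that side lies 2778 bp away.

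Groups did not overlap between WT roots and shoots at JAZ3 and JAZ7, higher in roots, and at JAZ10, lower in roots. Over all genes tested, 26.9% did not overlap with roots higher and 6.6% with roots lower. The calls at JAZ3, JAZ7 and JAZ10 were present in all 23 alternative settings run, where JAZ3 ranged from 18.9 to 41.5 points, JAZ7 from 17.9 to 41.9 points and JAZ10 from -28.9 to -10.1 points.

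**Figure D2:**
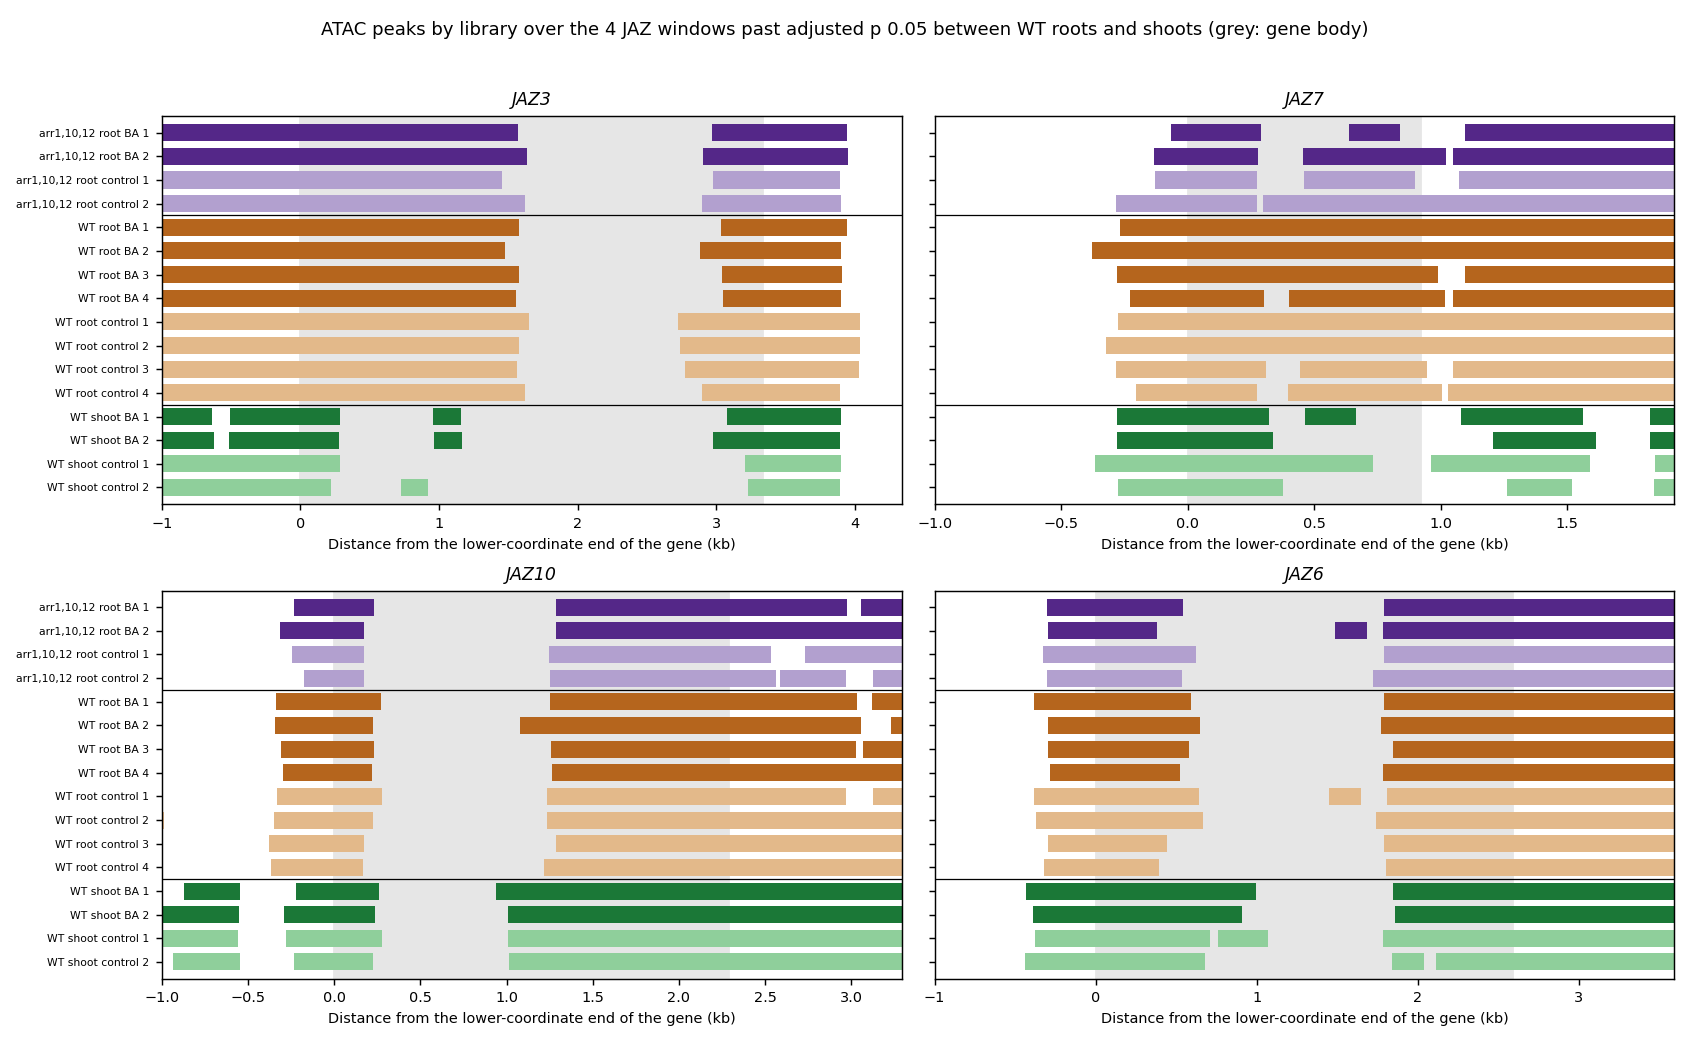
Peaks of each library (rows) as bars along the windows of JAZ3, JAZ7, JAZ10 and JAZ6, in kb from the lower-coordinate end of the gene (grey: gene body; horizontal lines separate arr1,10,12 roots, WT roots and WT shoots). The lower peak of JAZ3 reaches 1480 to 1647 bp into the gene in WT roots and 223 to 284 bp in shoots, and a peak ending 545 to 556 bp below JAZ10 is present in 4 of 4 shoot libraries.

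The other members did not pass the test between tissues, and some still differed in where their peaks ended. At JAZ9 the difference was 9.72 ± 4.42 points (SE, limma adjusted p = 0.0888), and the call was made with 2 kb flanks (adjusted p = 0.00914) and without shoot control 1 (0.0172). In WT roots a peak over the lower end of JAZ9 began 1124 to 3834 bp before the gene, against 441 to 487 bp in shoots, while the peak over the upper end extended 810 to 984 bp past the gene in 7 of 8 WT root libraries and 5179 bp in BA 1, against 2792 to 4172 bp in shoots. At JAZ8, which encodes a JAZ that lacks the canonical degron and resists hormone-driven destruction, the difference was 9.48 ± 5.18 points (SE, limma adjusted p = 0.151). The lower flank of JAZ8 was covered to 89.65% with BA and 92.5% in controls in WT roots, against 46.5% and 48.3% in shoots. With gene bodies alone the difference was -9.75 points, also not called. The lower peak of JAZ8 began 814 to 992 bp before the gene in WT roots. In shoots the peak or peaks on that side began 474 to 485 bp before it. At JAZ1, JAZ2, JAZ5 and JAZ12 the differences were 1.88, -2.34, -2.39 and 5.66 points, with limma adjusted p between 0.223 and 0.522. With scaling, the differences at JAZ1, JAZ9 and JAZ12 changed sign. JAZ1 (-17.3 points), JAZ2 (-14.5) and JAZ5 (-16.8) then passed the threshold as lower in roots. Scaling divides by the library mean, which is lower in shoots, and sets no cap at 100%. A window covered in full in both tissues therefore comes out lower in roots. Unscaled, JAZ1 had 97.5 to 100% in WT roots and 93.5 to 100% in shoots, so its scaled call is not read as a tissue difference. JAZ1 was called in 3 of 23 alternatives, and its sign changed with scaling alone. With 2 kb flanks it was called as higher in roots. The peak over its upper end ran 440 to 4673 bp past the gene in WT roots (median 2493 bp). In shoots that peak ran 678 to 1370 bp past it (median 1007.5 bp).

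**Figure D3:**
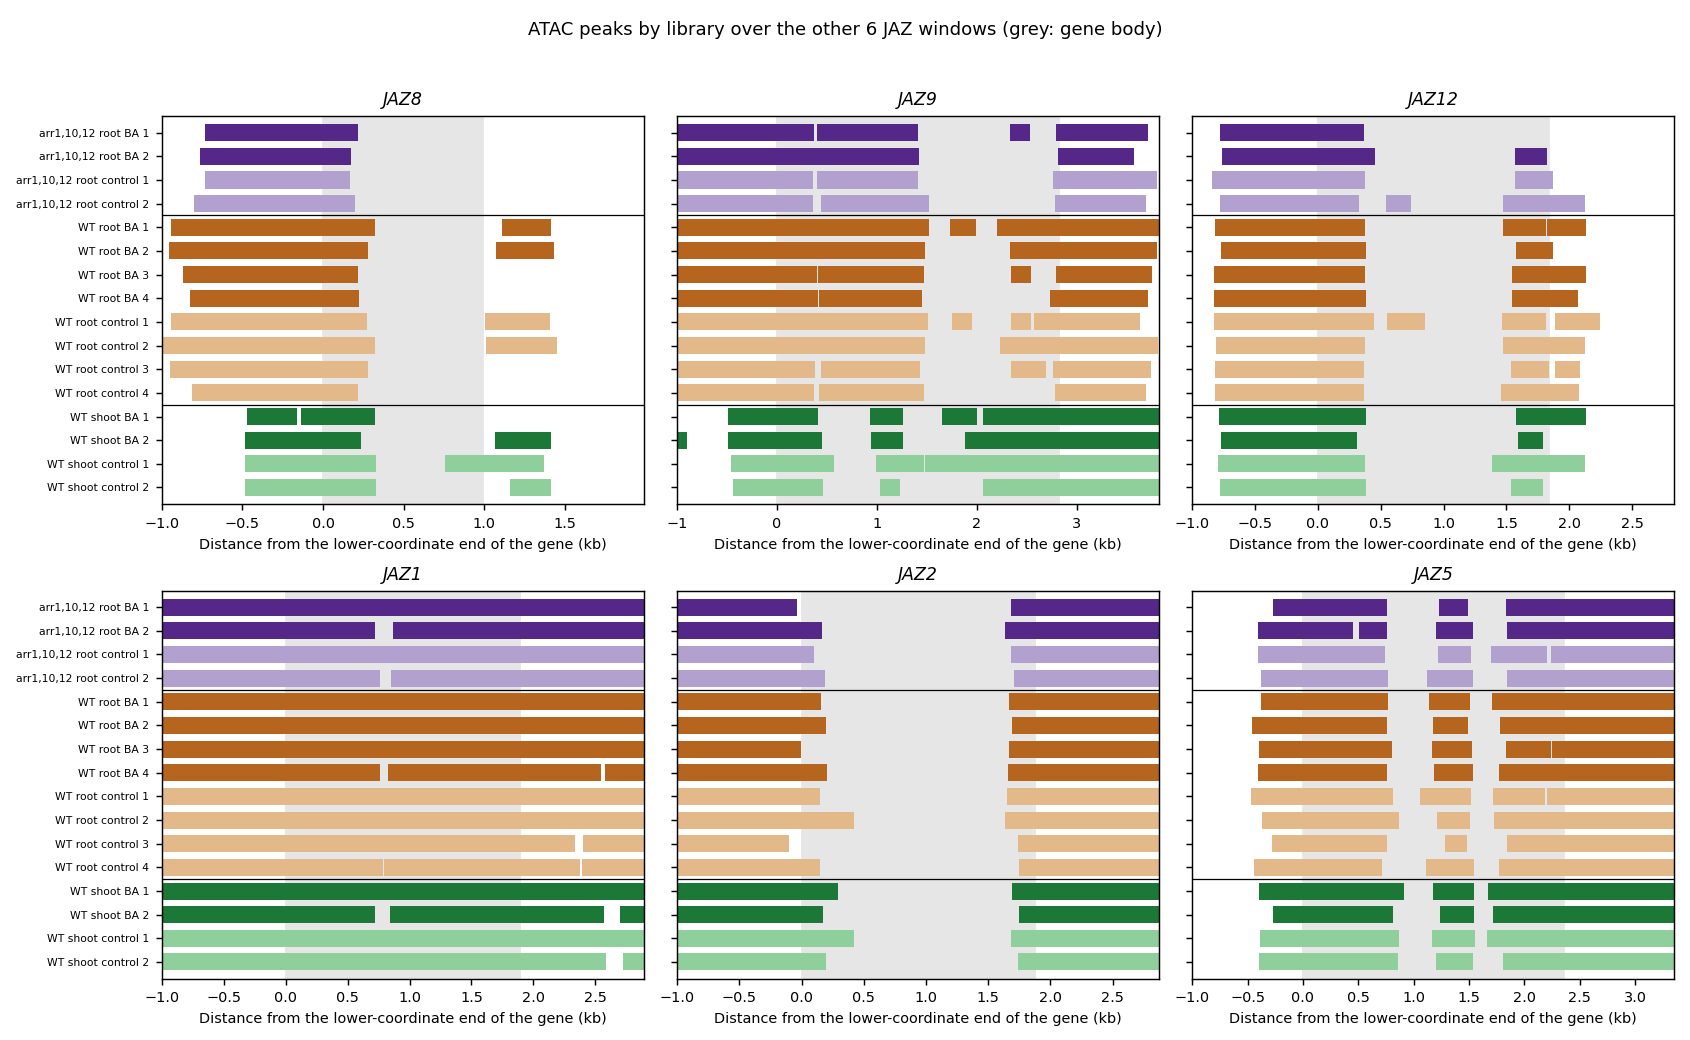
Peaks of each library (rows) as bars along the windows of JAZ8, JAZ9, JAZ12, JAZ1, JAZ2 and JAZ5, in kb from the lower-coordinate end of the gene (grey: gene body; horizontal lines separate arr1,10,12 roots, WT roots and WT shoots). The peak above JAZ8 is present in 0 of 4 arr1,10,12 libraries, 4 of 8 WT root libraries and 3 of 4 shoot libraries, and JAZ1 is covered almost throughout.

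No JAZ window passed limma's test after BA in arr1,10,12 roots, WT roots or WT shoots. Over all genes 0.0121% were called in WT roots (3 genes), 0.105% in WT shoots (26 genes) and 0% in arr1,10,12 roots, where 611 genes had an unadjusted p under 0.05. With the replicate block these counts were 22, 87 and 1 genes, and no JAZ gene was among them. Exact permutation per gene with adjustment called 0 genes in each of the 3, and with 2 against 2 libraries its p cannot go below 0.333. The median difference over the 10 genes was -0.27 points in WT roots, -1.21 in WT shoots and -0.88 in arr1,10,12 roots, beside -1.64, 0.50 and -1.22 over all genes. ARR7 (45.2 ± 5.11 points, SE, limma adjusted p = 0.0110) in WT roots and ARR5 (25.8 ± 2.85, adjusted p = 0.00183) in WT shoots, both type-A response regulators, passed the same test, so calls could be made in these data. A miss does not show that a JAZ window was the same with and without BA. In simulated data for WT roots, shifts of 10 points were recovered at 17% and shifts of 20 points at 63% of genes. The simulated noise was the residuals from group means, shuffled over libraries without rescaling. This understates the spread, so the rates may be too high. Shifts were given to genes of middle covered percent alone, a range that JAZ1, JAZ5 and JAZ9 lie above, so the rates do not cover these windows.

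JAZ3 was the member with the lowest unadjusted p after BA in WT roots. The 4 BA values, 63.8 to 65.5%, all lay below the 4 control values, 67.9 to 74.2%, and each of the 4 replicate pairs was lower with BA, by between 4.05 and 8.90 points. The difference was -6.79 ± 1.93 points (SE, limma adjusted p = 0.728, and 0.136 with the replicate block), so it did not pass. It was -2.15 points with libraries scaled to one mean. In the gene body the values were 56.3, 57.9, 56.1 and 55.4% with BA and 67.7, 65.1, 63.6 and 61.9% in controls. The upper peak reached 289 to 452 bp into the gene with BA and 442 to 613 bp in controls, so its edge overlapped between treatments. Over all genes, 2.83% had no overlap with BA lower in WT roots and 0.247% with BA higher.

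In WT shoots the JAZ3 window had 40.8 and 42.9% with BA and 37.0 and 39.1% in controls, BA above control, a difference of 3.77 ± 2.73 points (SE, limma adjusted p = 1.0). Over all genes, 13.5% had no overlap with BA higher in shoots and 6.58% with BA lower. Both BA shoot libraries held a peak of 200 bp inside the gene, chr3:6120665-6120864 in BA 1 and chr3:6120673-6120872 in BA 2. Control 2 held one of 200 bp at another place, chr3:6120431-6120630, and control 1 held none. A test of the difference between the BA effects, shoots minus roots, gave 10.6 ± 3.34 points at JAZ3 (limma adjusted p = 0.984, and 0.200 with the replicate block). No JAZ gene passed it, beside 0.0769% of all genes.

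In arr1,10,12 roots the BA and control values did not overlap at JAZ10, higher with BA, and at JAZ5, JAZ6 and JAZ12, lower with BA. Such separation is common with 2 against 2 libraries, at 4.74% of all genes for higher and 20.6% for lower, and 4 of 10 members are not read as a result. At JAZ10 the values were 55.6 and 58.0% with BA and 52.8 and 51.5% in controls, a difference of 4.64 ± 2.33 points (SE, limma adjusted p = 1.0). JAZ12, whose product is stabilised by the ubiquitin ligase KEG, had 29.9 and 38.3% with BA and 39.7 and 50.8% in controls, a difference of -11.1 ± 6.50 points (limma adjusted p = 1.0). At JAZ7 both pairs were lower with BA, by 10.6 and 11.4 points, yet BA 2 (63.4%) exceeded control 1 (58.0%). The BA effect in arr1,10,12 minus that in WT roots passed limma's test at none of the 10 genes and at 0% of all genes (337 genes with an unadjusted p under 0.05).

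The authors' deposited tables list regions that differ between BA and control, without direction or size, 760 for roots and 685 for shoots. Of the 10 JAZ windows, 2 held a region of the root table and 0 held one of the shoot table, while 599 and 660 of all 27444 genes did. The region at JAZ3, chr3:6122743-6122960 (218 bp), lies at the upper end of the gene. In WT roots it was covered to 100, 100, 98.2 and 94.0% with BA and to 100% in the 4 controls, and in WT shoots to 81.7 and 100% with BA and to 21.1 and 11.5% in controls. The region at JAZ10, chr5:4220643-4220840 (198 bp), was under a peak over its whole length in all 16 libraries, so that peak coordinates show no difference there. The authors' deposited table for roots also has a region 3831 bp below JAZ2, and that for shoots one 4441 bp below JAZ12, both outside the windows.

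Roots of arr1,10,12 had lower values than WT roots at all 10 JAZ windows, and none of the differences passed limma's test. Over all genes tested, 58.2% were lower in the mutant. The same direction was seen at 14 of 15 genes of jasmonate synthesis and at 4 of 9 further TIFY genes. Over all genes 0.409% were called (101 genes, and 22 with the replicate block). The median difference was -4.28 points over the JAZ genes and -0.48 over all genes. At JAZ1, JAZ2, JAZ3 and JAZ6 the difference lay between -1.51 and -0.40 points and changed sign in 2, 4, 2 and 5 of 23 alternative settings. JAZ7, JAZ8 and JAZ10 had an unadjusted limma p under 0.05, as had 2707 of all 24708 genes tested. Exact permutation per gene called 0 of all 24708 genes after adjustment, and its p cannot go below 0.00202 here. Between tissues the lowest p was the same and 11515 genes were called, so calls depend on how many of all genes come near it. The 0 called between genotypes therefore says nothing about the 10 JAZ genes in particular.

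At JAZ10 the 4 mutant values, 55.6 and 58.0% with BA and 52.8 and 51.5% in controls, all lay below the 8 WT root values, 58.6 to 61.7%. The difference was -5.41 ± 1.43 points (SE, limma adjusted p = 0.152). It was called when no filter on genes was used (adjusted p = 0.0466). The lower flank was covered to 27.2% with BA and 21.0% in controls in arr1,10,12, against 32.2% and 36.0% in WT roots. No arr1,10,12 library held the lower-flank peak of the shoots. Over all genes, 1.27% had no overlap with arr1,10,12 lower and 0.299% with arr1,10,12 higher.

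JAZ8 was the other window without overlap. Its values were 31.7 and 31.2% with BA and 30.2 and 33.3% in controls in arr1,10,12 roots, against 52.4, 53.1, 36.1 and 35.1% with BA and 54.4, 58.7, 41.1 and 34.5% in controls in WT roots. The mutant values lay close together below a WT group that fell into a high and a low pair. The difference was -14.0 ± 5.18 points (SE, limma adjusted p = 0.328). A peak above the gene was present in 0 of 4 arr1,10,12 libraries and in 4 of 8 WT root libraries, namely replicates 1 and 2 of both treatments. The lower peak began 734 to 799 bp before the gene in arr1,10,12 and 814 to 992 bp before it in WT roots.

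The split between WT root replicates 1 and 2 and replicates 3 and 4 was present at several members. At JAZ6, JAZ7, JAZ8 and JAZ9 all 4 libraries of replicates 1 and 2 were above all 4 of replicates 3 and 4. The mean over the 10 members was 67.1 to 70.8% in replicates 1 and 2 and 62.9 to 63.7% in replicates 3 and 4. Over all genes tested the mean was 30.1 to 34.7% in replicates 1 and 2 and 28.6 to 30.8% in replicates 3 and 4. How many of all genes split in this way was not counted, so the split is not read as particular to JAZ genes. Against WT root replicates 3 and 4 alone, a comparison chosen after seeing the data, the differences of arr1,10,12 were -5.06 points at JAZ8 and -3.40 at JAZ9, in place of -14.0 and -9.32 points. They were -8.13 points at JAZ7 and -5.09 at JAZ10, in place of -11.9 and -5.41. At JAZ6 and JAZ2 the sign changed, to 2.71 and 1.81 points, in place of -0.40 and -0.92. The mutant was thus not lower at all 10 windows in this comparison. Over all genes tested in it, 42.9% were lower in the mutant, and the median difference was 0.30 points. What replicates 1 and 2 share in handling is not given in the labels, and its part in the result was not tested.

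At JAZ7 the arr1,10,12 window had 47.3 and 63.4% with BA and 58.0 and 74.8% in controls, so 1 of 4 mutant libraries lay within the WT root range of 67.4 to 78.8%. At JAZ9 the 66.0 to 72.6% of arr1,10,12 overlapped the 69.1 to 91.0% of WT roots. JAZ3 in the mutant had 66.4 and 69.1% with BA and 63.2 and 67.9% in controls, and its lower peak reached 1453 to 1638 bp into the gene.

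**Figure D4:**
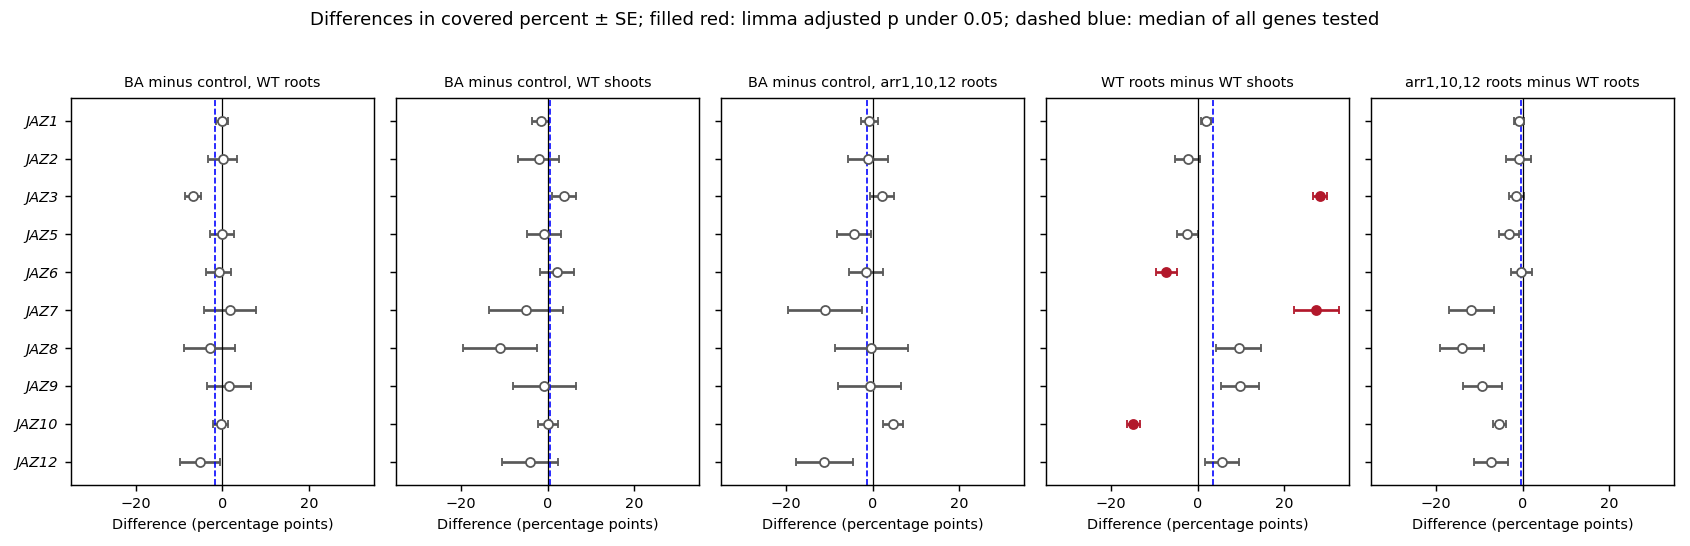
Difference in covered percent of each JAZ window in percentage points (horizontal axis) for 5 comparisons, as points with SE bars; filled red points have a limma adjusted p under 0.05 and the dashed line is the median of all genes tested. Filled points occur in the comparison of WT roots with WT shoots, at JAZ3, JAZ7, JAZ10 and JAZ6. In arr1,10,12 roots minus WT roots all 10 points lie below 0, as do 58.2% of all genes tested.

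Other genes of the pathway were also called between tissues, where 48.3% of all genes tested were called, 37.5% as higher and 10.8% as lower in roots, so the counts per list are given as a description beside these shares. Of 9 further genes of the TIFY family, to which the JAZ genes belong, 5 were higher and 1 lower in WT roots than in shoots. JAZ4 averaged 49.6 ± 5.19% in WT roots (SD, n = 8), and no shoot library had a peak in its window (49.6 ± 2.76 points, SE, limma adjusted p = 2.84e-08). ZIM (23.4 points) and PPD1 (9.85 points) followed in size. Of 15 genes of jasmonate synthesis, 3 were higher and 6 lower in roots. The lower ones included AOC1 (-66.2 points) and its tandem neighbour AOC2 (-44.8), which encode allene oxide cyclases, and LOX2 (-45.7), a chloroplast lipoxygenase, which averaged 4.88 ± 2.89% in WT roots and 50.5 ± 11.5% in WT shoots.

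Among 10 genes of jasmonate turnover, 3 were higher and 5 lower in roots. CYP94B1, a hydroxylase of jasmonoyl-isoleucine, was higher by 35.5 points, while JOX4, a jasmonate oxidase (-42.5 points), and ILL6, an amidohydrolase (-30.4 points), were lower. JOX4 was spread widely in WT roots, from 24.0 to 97.4%, with replicate 1 highest in both treatments, against 99.7 to 100% in shoots. Of 5 genes of perception and corepression, COI1 (12.7 points), MED25 (10.1 points), a Mediator subunit that binds MYC2, and TPL (7.10 points) were higher in roots, and none was lower. MYC2 did not pass, with 94.6 ± 3.56% in WT roots and 87.6 ± 9.13% in WT shoots. Of 11 transcription factor genes tested, 1 was higher and 3 lower in roots, namely MYC5 (-17.5 points), MYB21 (-13.5) and JAM1 (-9.26). Of 5 response genes tested, the storage protein genes VSP1 (47.1 points) and VSP2 (13.1) were higher in roots and the transcription factor gene NAC019 (-20.4) was lower. MYB24 and THI2.1 had no peak in any library and were not tested.

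None of the jasmonate or further TIFY genes was called after BA in any of the 3 sets, or between arr1,10,12 and WT roots. For reference, 3 of 10 type-A response regulator genes were lower in arr1,10,12 than in WT roots and none was higher, with ARR7 at -31.1 and ARR16 at -14.2 points as the ends of the range, and the median over the 10 was -12.4 points. Of 23 Aux/IAA genes, another family of hormone repressors that a receptor removes, 7 were higher and 5 lower in WT roots than in shoots, between -55.6 points at IAA6 and 46.3 at IAA17, and 0 were called after BA or between genotypes.

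**Figure D5:**
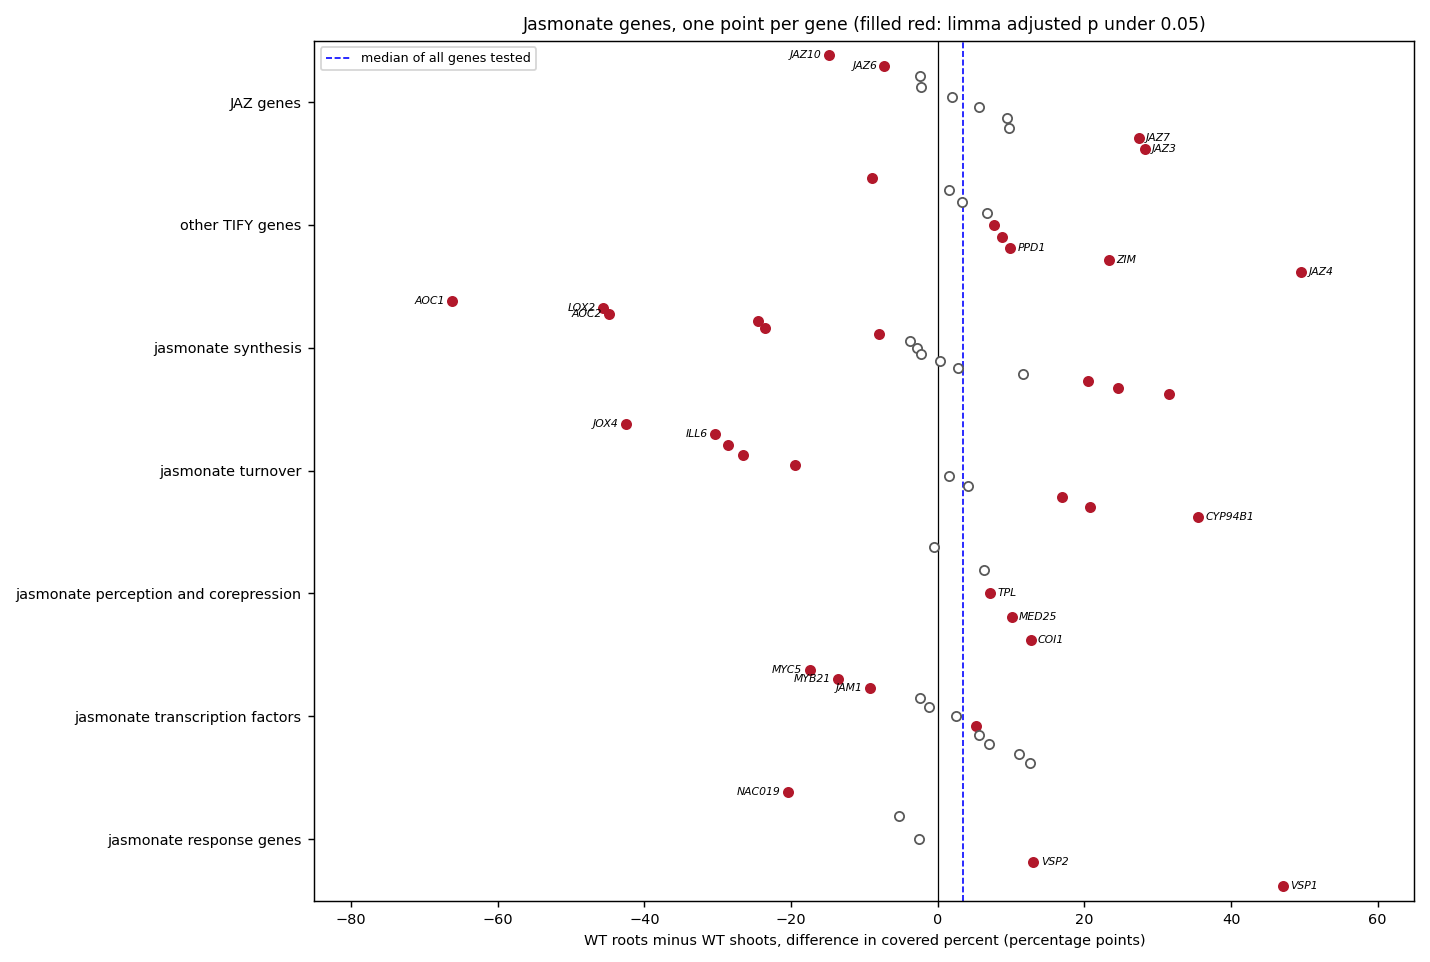
Difference in covered percent, WT roots minus WT shoots, in percentage points (horizontal axis) for each gene of 7 jasmonate lists (rows), 1 point per gene; filled red points have a limma adjusted p under 0.05, and up to 3 per list, with JAZ6 in addition, are named. The JAZ genes lie between -14.8 points at JAZ10 and 28.2 at JAZ3, within the span set by AOC1 at -66.2 and JAZ4 at 49.6.

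The 5 genes whose covered percent followed the mean of the 10 JAZ windows most closely over the 16 libraries were AT2G18500 (OFP7, Pearson r = 0.916), AT4G34230 (CAD5, 0.873), AT1G19570 (DHAR1, 0.866), AT2G37910 (0.862) and AT1G23790 (0.859), out of 5123 genes with an SD of at least 10 points. These correlations are a description over libraries that share tissue, genotype and peak calling. The mean of the JAZ windows was 58.1 to 63.6% in arr1,10,12 roots, 62.9 to 70.8% in WT roots and 56.7 to 66.6% in WT shoots.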

How the data were processed

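The 16 ATAC-seq libraries were analysed here; the 12 RNA-seq samples were not. The submitters' processing notes name the build TAIR10 and the tools HOMER 4.9.2, deepTools 2.5.2, Bowtie 1.2.0 and SAMtools 1.5, whose roles are not given in the sources used here. The deposited peak files hold chromosome, start and end alone, 1 file per library, with no score, signal or read number. A further pair of lists holds the authors' regions that differ between BA and control. Gene positions came from a RefSeq table of TAIR10.1 without strand, so gene ends are called lower and upper by coordinate and only positions from the files are printed. An offset check in 62 bins placed gene ends within 100 bp (largest shift 50 bp) in 62 of 62.

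The covered percent of each gene with 1 kb on both sides was computed with Python 3.11.15 and pandas 2.3.3. Genes with a peak in at least 2 libraries (24708 of 27444, with all 10 JAZ genes) were fitted with limma 3.58.1 (R 4.3.3) as 6 group means with a trended prior, and p-values were adjusted by Benjamini-Hochberg over all genes tested at a threshold of 0.05. Replicates are called biological in the series text; how they were grown is not given. Deviations of WT root libraries with the same number correlated at 0.31 to 0.465 over genes between BA and control, and those with other numbers at -0.342 to 0.231, so the numbers pair these libraries. The main fit takes all libraries as independent, so for comparisons between tissues or genotypes its SE can be too small. Exact permutation per gene ignores the pairs too. A fit with the replicate number as a block is an alternative (correlation 0.392). The others are other windows, scaling, filters, narrow peaks left out, groups fitted alone, exact permutation per gene and each library left out. The fit was tested on simulated data for BA in WT roots. Members, gene lists and tests were chosen with earlier results of these data known. All 10 members are described; of each list, up to 3 called genes with the largest difference are named, and MYC2, CLV3 and STM were named after their values were seen.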

Additional observations from a re-analysis of the deposited data

Results flagged for a closer look

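In WT roots with BA, JAZ1 was covered in full in 3 of 4 libraries and to 97.5% in replicate 4. The gap of that library to the others is the whole range of the group, a ratio of 1.0, above Dixon's 95% critical value for 4 samples. Chance marks about 1 in 20 groups in this way, and values at the ceiling of 100% leave no spread to compare with.

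At JAZ3 the BA effect went in opposite directions in the tissues: both BA shoot libraries were above both shoot controls, and all 4 BA root libraries were below all 4 root controls. The effect in WT shoots minus that in WT roots was 10.6 points (SE 3.34), with a limma adjusted p of 0.984, and 0.200 to 1.0 over 19 alternatives. Shoot libraries number 2 per treatment, and 13.5% of all genes show no overlap with BA higher there.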

How the results depend on the processing

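Between WT roots and shoots 4 JAZ genes passed the test. With 2 kb flanks 7 passed (JAZ1, JAZ5 and JAZ9 in addition), where 13143 of 25665 genes were called. With libraries scaled to one mean 7 passed (JAZ1, JAZ2 and JAZ5 in addition), where 12362 of 24708 were called. JAZ1 is near full coverage in both tissues and scaling sets no cap at 100%, so its scaled call is not read as a difference. Its call with 2 kb flanks had the other direction, higher in roots. The cause of the other added calls was not tested. Between arr1,10,12 and WT roots 0 passed, and 1 (JAZ10) passed with no filter on genes. The counts of JAZ genes called in the other comparisons were 0 under every alternative run. The replicate block changed no call on a JAZ gene other than that at JAZ6; it gave 9890 genes between roots and shoots and 22 between arr1,10,12 and WT roots. Over all alternatives, the numbers of genes called ran between 0 and 38 for BA in WT roots (3 reported), 0 and 164 for BA in WT shoots (26), 0 and 12 for BA in arr1,10,12 (0), 6502 and 13143 between tissues (11928), 0 and 162 between genotypes (101), 1 and 106 (19) for the BA effect in shoots minus roots, and 0 and 4 (0) for that in arr1,10,12 minus WT roots. No called difference reversed. Of 1250 single differences recomputed, 1166 held their call or stayed within 1 SD, 69 uncalled ones moved by more, 9 gained a call and 6 lost it. The merged peak map had 21 regions, 19 with peaks joined within 100 bp and 20 with peaks under 300 bp left out. Peak edges depend on depth, which is unknown.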
